A study of Mus musculus with 12 samples.

Results

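The genes described here are 8 GTPases induced by interferon-γ: the guanylate-binding proteins Gbp3, Gbp4, Gbp5, Gbp7, Gbp8 and Gbp9 and the immunity-related GTPases Irgm1 and Iigp1. They were chosen as the members of both families named for this description whose row in the array table carries their symbol and no other, and they are 8 of 19938 genes with a row of their own. Each has 1 row, numbered 10496580 (Gbp3), 10531987 (Gbp4), 10496539 (Gbp5), 10496569 (Gbp7), 10531972 (Gbp8), 10531980 (Gbp9), 10385500 (Irgm1) and 10455961 (Iigp1). The rule used gene names and no measured values, though it was set with earlier results of these data known.

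The study asked how the transcription factor Runx3 shapes mononuclear phagocytes of the large intestine. RNA came from cells sorted from the cecum of C57Bl/6 mice of 6 to 8 weeks, males and females pooled, with 3 to 4 mice in each sample. Resident macrophages (RM) were sorted as leukocytes carrying CD11c, MHCII and CD11b, without Ly6c and with the macrophage antigen that Adgre1 encodes. CD11b+ dendritic cells (DC) met the same gates without that antigen. The WT group is labelled Runx3 +/+, and the group called Runx3Δ here is labelled cKO and Runx3 -/-. These are mice with Runx3 fl/fl alleles cut by a CD11c:Cre transgene, so the deletion follows CD11c activity and is not restricted to RM or to DC. There were 3 WT and 4 Runx3Δ arrays of RM, and 2 WT and 3 Runx3Δ arrays of CD11b+ DC. All values are log2 levels, the array intensities on a log2 scale after RMA, and a difference of 1 is a 2-fold change. Levels of different rows depend on their probes and are not compared with each other.

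Both families are part of the response of a cell to interferon-γ, the cytokine that T cells and NK cells make to activate macrophages. Its receptor signals through JAK kinases, and the GTPase genes are switched on through DNA elements called GAS and through ISRE elements, which IRF1 binds. The guanylate-binding proteins are large GTPases, several of them lipid-anchored, that gather on the vacuoles and membranes of intracellular microbes and help to open them to the cytosolic inflammasome. The immunity-related GTPases work at the same vacuoles: effector proteins such as Iigp1 (Irga6) load onto the membrane and disrupt it, while regulators such as Irgm1 hold the effectors inactive on the membranes of the cell itself. In the gut wall, which faces dense microbial contents, macrophages and DC are among the cells that use them.

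Gbp5, Gbp7 and Gbp3 are consecutive genes on mouse chromosome 3, and Gbp8, Gbp9 and Gbp4 are consecutive on chromosome 5, in the reference gene table of the assembly GRCm38.p6. Members of a cluster are close paralogs, so probes of 1 may catch RNA of another. Iigp1 and Irgm1 also lie beside genes listed with these families, F830016B08Rik and Gm5431, so the same may hold for their rows. A further row of the array carries 6 symbols of the chromosome 5 cluster, 3 of them members, and was left out for that reason. Promoters of 4 members were taken from the RefSeq promoter table for GRCm38.p6. Those of Gbp4, Gbp8, Gbp9 and Iigp1 are not shown, and nothing is said here of their letters. The 250 bases before the annotated start are shown because they hold the binding letters of the interferon pathway named above. Capitals mark matches, on either strand, to the GAS letters TTCNNNGAA or to the ISRE core GAAANNGAA, which reads TTCNNTTTC on the other strand.
Gbp5, chr3:142496684-142496933, plus strand: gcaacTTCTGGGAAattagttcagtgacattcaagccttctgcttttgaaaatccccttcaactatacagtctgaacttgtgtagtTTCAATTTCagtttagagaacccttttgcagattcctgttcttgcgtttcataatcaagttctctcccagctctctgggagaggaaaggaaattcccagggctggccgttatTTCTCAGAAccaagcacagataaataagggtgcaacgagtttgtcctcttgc
Gbp7, chr3:142530086-142530335, plus strand: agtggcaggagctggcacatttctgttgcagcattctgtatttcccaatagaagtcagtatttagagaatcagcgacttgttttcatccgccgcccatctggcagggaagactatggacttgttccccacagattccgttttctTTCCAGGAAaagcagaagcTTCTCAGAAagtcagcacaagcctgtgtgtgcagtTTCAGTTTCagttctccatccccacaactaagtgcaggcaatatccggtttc
Gbp3, chr3:142559794-142560043, plus strand: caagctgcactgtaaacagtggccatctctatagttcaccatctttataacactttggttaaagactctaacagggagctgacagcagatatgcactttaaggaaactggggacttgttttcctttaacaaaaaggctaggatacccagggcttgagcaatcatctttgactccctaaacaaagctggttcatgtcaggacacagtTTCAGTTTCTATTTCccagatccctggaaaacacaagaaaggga
Irgm1, chr11:48871421-48871670, minus strand: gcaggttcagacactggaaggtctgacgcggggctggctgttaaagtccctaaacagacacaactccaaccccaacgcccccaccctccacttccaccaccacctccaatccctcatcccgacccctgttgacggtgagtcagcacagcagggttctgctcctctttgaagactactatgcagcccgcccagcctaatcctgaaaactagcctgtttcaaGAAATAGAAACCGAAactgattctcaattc

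Gbp5 and Gbp7 each held 2 GAS matches and 1 ISRE core in this window, Gbp3 held 2 overlapping ISRE cores, and Irgm1 held 2 overlapping ISRE cores close to its start. A second annotated start of Gbp3 had neither. The GAS letters occurred in 7.02% and the ISRE core in 7.13% of all 32851 windows of this length. The RUNX letters TGTGGT, searched on both strands, occurred in 14% of them and were not in the windows of these 4 genes. A match is a description of letters, and its absence says only that these letters are not in this window.

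The arrays of each cell type resembled each other closely, with a mean correlation of 0.980 to 0.989 with the other arrays of that type across all rows. The lowest belonged to RM Runx3Δ replicate 1, which was also below its group mean for each of the 8 GTPases. The sort is visible in the data: 10 of 11 macrophage markers measured were higher in WT RM than in WT CD11b+ DC after adjustment, and 8 of 10 conventional DC markers were lower. Another of these 10, Sirpa, was higher in WT RM after adjustment (11.59 against 10.87). Of all 35556 rows, 2160 passed this test in either direction. The row of Runx3 read 9.69 ± 0.19 (SD, n = 3) in RM labelled WT against 9.94 ± 0.16 (SD, n = 4) in those labelled Runx3Δ. In CD11b+ DC it read 10.05 ± 0.09 (SD, n = 2) against 10.04 ± 0.09 (SD, n = 3). Its row combines probes along the gene while the deletion removes a single exon, so the level does not check the genotype, and WT and Runx3Δ stand for the labels throughout. In such bulk samples, fewer cells of a type and less RNA per cell cannot be told apart.

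Iigp1, the effector GTPase, showed the largest difference between the genotypes among the 8 genes in RM. Its log2 level was 6.36, 6.57 and 6.79 in the WT RM arrays and 7.34, 8.48, 7.81 and 7.99 in the Runx3Δ RM arrays. Every Runx3Δ array lay above every WT array, with no overlap. In CD11b+ DC the WT arrays read 6.69 and 5.89 and the Runx3Δ arrays 6.94, 7.12 and 7.01, again without overlap, and the WT pair had the largest SD of the 4 groups (0.57). Among the group means, Runx3Δ RM stood first and Runx3Δ CD11b+ DC second, each clear of the next group, while WT RM and WT CD11b+ DC overlapped.

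Irgm1, the regulator that restrains effectors such as Iigp1, had a different order of groups. In RM it read 8.28, 8.14 and 8.97 in WT and 8.37, 9.46, 8.96 and 8.89 in Runx3Δ, and these ranges overlapped. In CD11b+ DC it read 8.08 and 8.75 in WT and 8.89, 9.54 and 9.15 in Runx3Δ, without overlap. Irgm1 was the only one of the 8 genes whose highest group mean was in CD11b+ DC, at 9.19 ± 0.33 (SD, n = 3) in Runx3Δ, but that group overlapped Runx3Δ RM.

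The chromosome 3 cluster holds Gbp5, which promotes assembly of the NLRP3 inflammasome, Gbp7, which acts in oxidative killing and repair at microbial vacuoles, and Gbp3. Gbp5 read 8.31, 8.03 and 9.17 in WT RM, 8.66, 9.42, 9.07 and 9.22 in Runx3Δ RM, 8.03 and 8.51 in WT CD11b+ DC, and 8.71, 8.88 and 9.04 in Runx3Δ CD11b+ DC. WT RM replicate 3 stood apart from the other WT RM arrays and within the Runx3Δ range. Gbp7 read 10.51, 10.69 and 10.98 in WT RM and 10.10, 11.25, 10.99 and 11.09 in Runx3Δ RM, where replicate 1 lay below every WT array. In CD11b+ DC Gbp7 read 9.57 and 9.67 in WT and 9.86, 10.15 and 10.55 in Runx3Δ, without overlap. Gbp3 read 9.80, 9.88 and 10.23 in WT RM, 10.05, 10.29, 10.07 and 10.37 in Runx3Δ RM, 9.03 and 9.19 in WT CD11b+ DC, and 9.19, 9.37 and 9.74 in Runx3Δ CD11b+ DC. The 2 cell types did not overlap for Gbp3, and the genotypes overlapped in RM.

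The chromosome 5 cluster members Gbp4, Gbp8 and Gbp9 followed the same order of group means as Gbp3 and Gbp7, with Runx3Δ RM first, then WT RM, Runx3Δ CD11b+ DC and WT CD11b+ DC. Gbp4 read 9.12, 9.90 and 10.18 in WT RM, 9.89, 10.82, 10.48 and 10.58 in Runx3Δ RM, 8.83 and 9.03 in WT CD11b+ DC, and 9.34, 9.61 and 9.88 in Runx3Δ CD11b+ DC. Only 1 Runx3Δ RM array, replicate 1, lay within the WT range. Gbp8 ranged from 8.32 to 9.30 in WT RM, 9.01 to 9.55 in Runx3Δ RM, 8.17 to 8.48 in WT CD11b+ DC and 8.30 to 8.86 in Runx3Δ CD11b+ DC. Gbp9 ranged from 8.55 to 8.77 in WT RM, 8.63 to 9.03 in Runx3Δ RM, 7.90 to 8.06 in WT CD11b+ DC and 8.03 to 8.38 in Runx3Δ CD11b+ DC. For both genes the genotypes overlapped in both cell types.

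**Figure D1:**
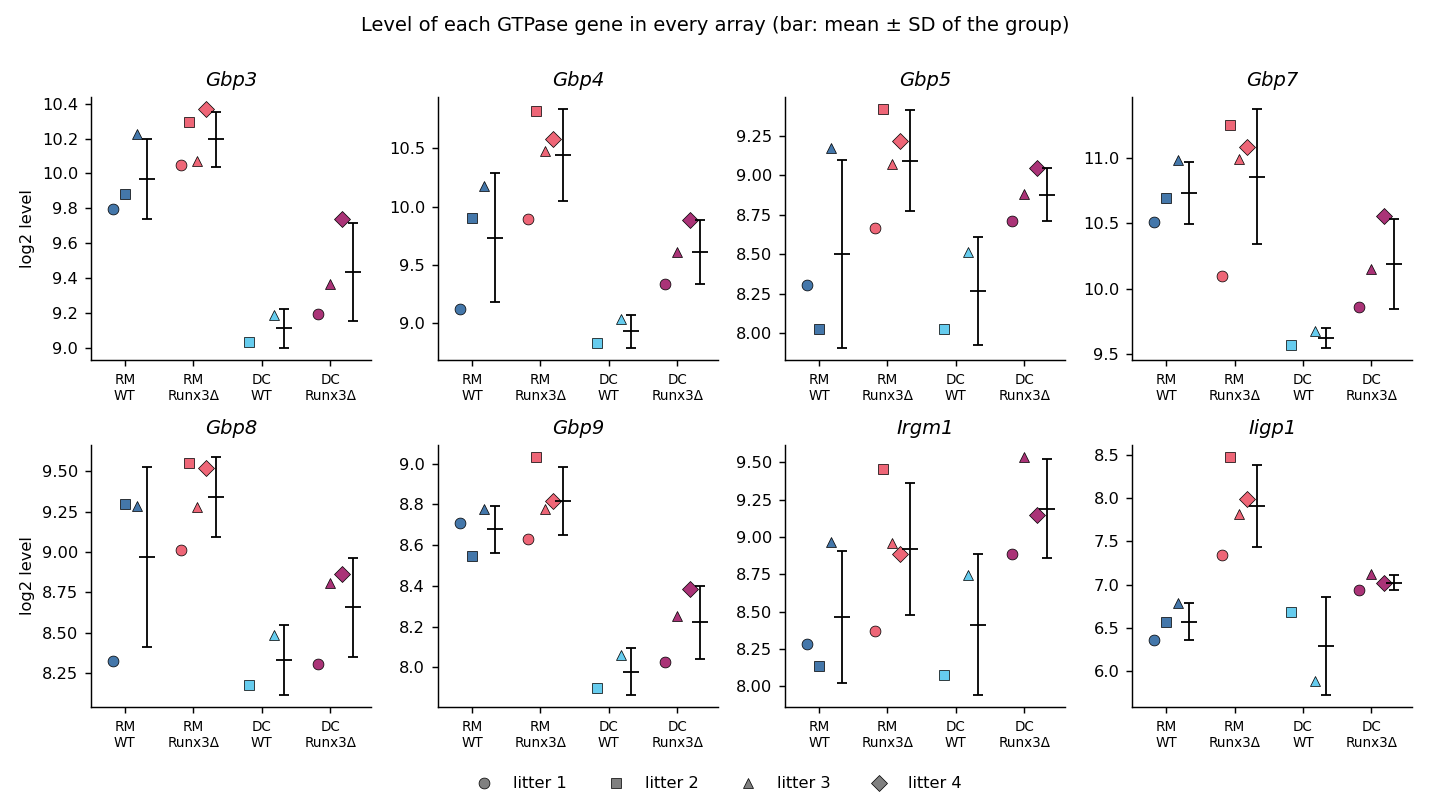
Log2 level (y axis) of each GTPase gene in every array, in 8 panels by group, with symbols for the litter number of the label and bars for the mean ± SD of the group. For Iigp1 the 4 Runx3Δ RM arrays lie between 7.34 and 8.48, above the 3 WT RM arrays at 6.36 to 6.79. The scale differs between panels.

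In RM all 8 genes had a higher mean in Runx3Δ than in WT, and none passed the test after adjustment. The log2 differences ran from 0.13 for Gbp7 to 1.33 for Iigp1, with a median of 0.41 against 0.01 over rows with 1 gene symbol. Iigp1 differed by 1.33 ± 0.25 (SE), 2.52-fold, with a 95% confidence interval of 0.79 to 1.88 (limma moderated test, unadjusted p = 0.000234, adjusted p = 0.148 over all 35556 rows). It passed in 3 of 25 alternatives, with an adjusted p of 0.0336 with the brightest row of each gene, 0.0343 with averaged rows and 0.0360 over rows with 1 gene symbol, and not where dim rows were removed (adjusted p = 0.0966). Of all rows, 0.00844% were higher at the adjusted threshold. An unadjusted p under 0.05 was found for 7.96% of all rows in either direction and for 3 members, Iigp1, Gbp4 (0.71 ± 0.26) and Gbp5 (0.59 ± 0.26). The same 3 met the study's own criteria (at least 1.5-fold, unadjusted p of at most 0.05), which 0.728% of all rows met upward. That count was 1 without RM WT replicate 1, 1 without RM Runx3Δ replicate 2 and 1 by a linear model of the 2 groups without moderation, which also called 0 members after adjustment. Without RM WT replicate 1 the median was 0.26 and Gbp4 differed by 0.40. Gbp5 differed by 0.35 without RM WT replicate 2 and by 0.93 without replicate 3. Iigp1 was the 1 member of 8 whose groups did not overlap, which was so, upward, for 4.12% of all rows.

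In CD11b+ DC all 8 genes again had a higher mean in Runx3Δ, by 0.24 for Gbp9 to 0.78 for Irgm1, with a median of 0.59 against 0.01 over rows with 1 gene symbol. None passed the adjusted test, which 0% of all rows passed, and the lowest adjusted p among the members was 0.689, for Iigp1. An unadjusted p under 0.05 was found for 6.74% of all rows in either direction and for 2 members, Irgm1 with a log2 difference of 0.78 ± 0.34 (SE) and Iigp1 with 0.74 ± 0.30. Both met the study's cutoffs with the limma p, as 0.633% of all rows did upward. With the litter as replicate block 4 members met them. The count was 0 by a linear model of 2 or of 4 groups without moderation, and none passed after adjustment by either. It was 0 without DC Runx3Δ replicate 2 or replicate 3, 1 without DC WT replicate 1 or replicate 2 and without RM Runx3Δ replicate 3 or replicate 4, and 4 without RM WT replicate 3. For 6 of 8 genes, all but Gbp8 and Gbp9, every Runx3Δ array lay above both WT arrays, against 13.1% of all rows. For Gbp3 the gap was narrow, with both groups reading 9.19 at their nearest arrays. With 2 WT arrays, Iigp1 differed by 0.34 without DC WT replicate 2 and by 1.14 without replicate 1, while Irgm1 differed by 1.11 and 0.44.

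**Figure D2:**
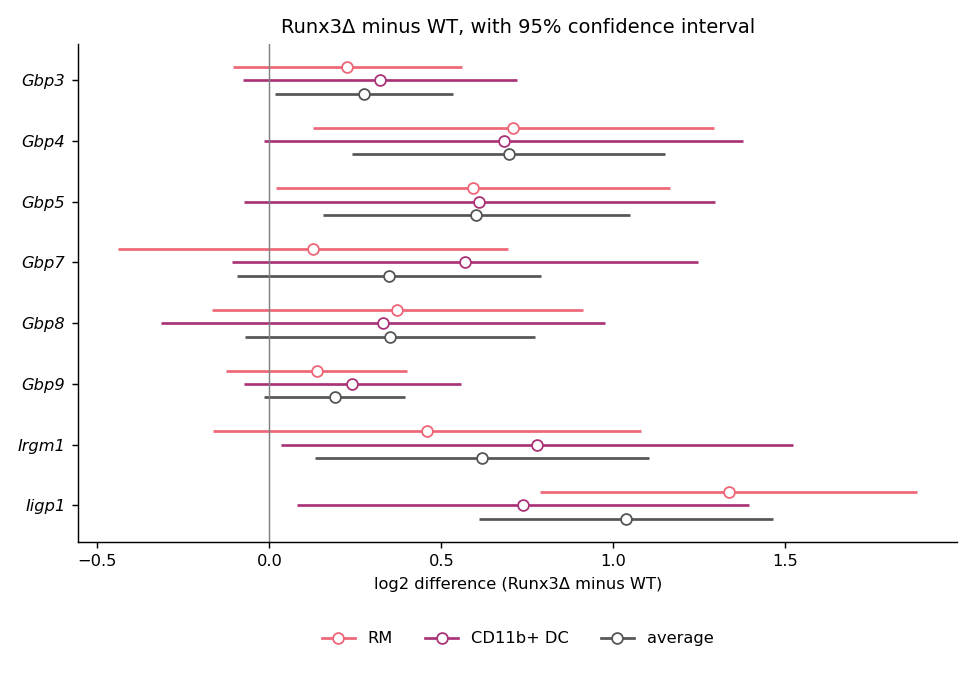
Log2 difference between Runx3Δ and WT (x axis) for each gene (y axis) in RM, in CD11b+ DC and as their average, with lines for the 95% confidence interval of the limma fit. All 24 points lie above 0, and open circles mark that no adjusted p is under 0.05. Iigp1 in RM lies farthest out at 1.33.

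All 8 genes were thus above 0 in both cell types, which held for 34.5% of the rows with 1 gene symbol. Averaged over both cell types, Iigp1 differed by 1.04 ± 0.19 (SE), 2.05-fold (adjusted p = 0.0887 by limma), Gbp4 by 0.70 ± 0.21, Irgm1 by 0.62 ± 0.22, Gbp5 by 0.60 ± 0.20 and Gbp3 by 0.27 ± 0.12. These 5 had an unadjusted p under 0.05 with higher levels in Runx3Δ, as 4.85% of all rows did, and 0 members passed after adjustment, where 0.0112% of all rows were higher. Iigp1 passed with array weights (adjusted p = 0.0348), with 1 row per gene (0.0205) and over rows with 1 gene symbol (0.0198). The difference between the effect in RM and that in CD11b+ DC was tested as an interaction. It ran from -0.44 for Gbp7 to 0.60 for Iigp1, with an interval of -0.26 to 1.45 for Iigp1, and 0 members passed, with 0 members at an unadjusted p under 0.05 as well and 0% of all rows called. These intervals are too wide to show that the cell types respond alike.

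The labels number the samples as litter mates, and the number was taken here as a litter shared across groups, although each sample is a pool of 3 to 4 mice and the labels do not spell this out. Read so, 3 litters gave RM of both genotypes and 1 gave CD11b+ DC of both. Iigp1 was higher in Runx3Δ within each of them, by 0.98, 1.91 and 1.03 in RM of litters 1, 2 and 3 and by 1.23 in CD11b+ DC of litter 3. Gbp4 was also higher in each, by 0.78, 0.92 and 0.30 in RM and 0.58 in CD11b+ DC. The other 6 genes did not share this. In RM of litter 1 Gbp7 differed by -0.42 and Gbp9 by -0.08, and in RM of litter 3 the 6 differences lay between -0.16 and 0.01. The median of the 8 genes was 0.31, 0.74 and -0.00 in RM of litters 1, 2 and 3, and 0.42 in CD11b+ DC of litter 3. The WT array of RM in litter 3, replicate 3, was above its group mean for 8 of 8 genes, and without it the median in RM was 0.62. Each within-litter value rests on 1 array per genotype and has no error of its own.

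**Figure D3:**
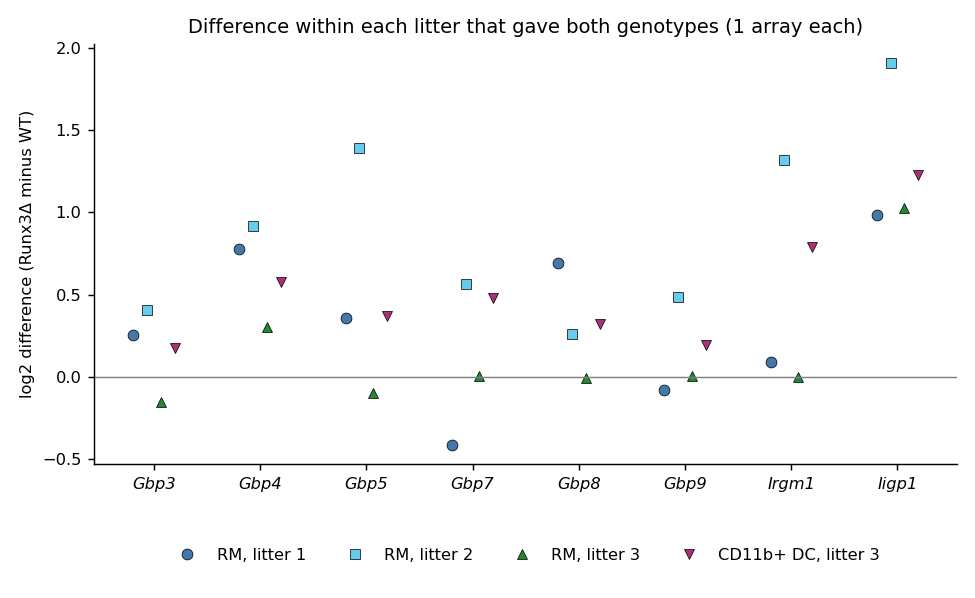
Log2 difference between the Runx3Δ and the WT array of the same litter number and cell type (y axis) for each gene (x axis). Points of Iigp1 lie between 0.98 and 1.91 in all 4 pairs, while 6 genes lie near or below 0 in RM of litter 3, and Gbp7 is lowest at -0.42 in RM of litter 1.

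Markers of T and NK cells, the producers of interferon-γ, also tended to have higher means in Runx3Δ. Of 14 measured, 12 were above 0 in RM and 12 in CD11b+ DC, with medians of 0.20 and 0.21, 0 past the adjusted limma threshold and 2 in each at an unadjusted p under 0.05, where 7.96% and 6.74% of all rows lay. In RM these 2 were Gzma (1.30) and Cd3d (0.32), and in CD11b+ DC they were Cd3d (0.43) and Cd2, which was lower in Runx3Δ (-1.22). The mean log2 level of the list ranged from 5.57 to 6.02 in WT RM and from 5.92 to 6.36 in Runx3Δ RM, and from 5.62 to 5.64 and from 5.80 to 5.83 in CD11b+ DC. It includes Cd4, with means of 11.6 in WT RM and 11.1 in Runx3Δ RM, and of 8.9 and 9.4 in CD11b+ DC. The T cell receptor component Cd3e read 7.47, 7.35 and 6.45 in WT RM and 7.80, 8.66, 7.44 and 7.09 in Runx3Δ RM. RM Runx3Δ replicate 2, highest for Cd3e, was above its group mean for 8 of 8 GTPases, while RM WT replicate 3, lowest for Cd3e, was also above its group mean for 8 of 8. Epithelial markers were above 0 for 11 of 14 in RM and 12 of 14 in CD11b+ DC, with medians of 0.20 and 0.27. The part of these markers in the differences of the GTPases was not tested.

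Between cell types, Gbp3 and Gbp9 were higher in RM than in CD11b+ DC in both genotypes. In WT the log2 difference was 0.86 ± 0.18 (SE), 1.81-fold, for Gbp3 (limma adjusted p = 0.0167) and 0.70 ± 0.14, 1.62-fold, for Gbp9 (adjusted p = 0.0144), and 2 of 8 members passed where 3.05% of all rows were higher in RM. In Runx3Δ it was 0.76 ± 0.15 for Gbp3 (limma adjusted p = 0.0100) and 0.59 ± 0.12 for Gbp9 (adjusted p = 0.0109), and 2 of 8 passed where 3.73% of all rows were higher. Gbp7 differed by 1.11 ± 0.31 in WT (limma adjusted p = 0.0625) and Iigp1 by 0.88 ± 0.25 in Runx3Δ (limma adjusted p = 0.0560), outside the threshold. Gbp7 passed in 10 of 25 alternatives, among them quantile normalization (limma adjusted p = 0.0461) and removal of dim rows (0.0377). Iigp1 passed with these 2 (limma adjusted p = 0.0343 and 0.0333), not with the replicate block (0.0612) or median centring (0.0871). Gbp5 differed by 0.23 in WT and 0.22 in Runx3Δ, and Irgm1 by 0.05 in WT and -0.27 in Runx3Δ, all within overlapping ranges. Every RM array lay above every CD11b+ DC array for 4 of 8 genes in WT, against 16.1% of all rows, and for 5 of 8 in Runx3Δ, against 9.32%. These comparisons share their arrays with the comparisons of genotype.

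With the litter as replicate block, 5 members were higher in RM in WT, adding Gbp7 (1.30, limma adjusted p = 0.00839), Gbp4 (1.03, adjusted p = 0.0161) and Gbp8 (0.85, adjusted p = 0.0268). In Runx3Δ there were 4 with the block, adding Gbp4 (0.77, limma adjusted p = 0.0233) and Gbp8 (0.63, adjusted p = 0.0392). The WT count was 0 without RM WT replicate 3, without DC WT replicate 1 or without DC WT replicate 2, and 4 without RM WT replicate 1. The Runx3Δ count was 1 without DC Runx3Δ replicate 1 or replicate 2, 4 without RM WT replicate 1 and 5 without RM Runx3Δ replicate 1. The share of all rows called with the block or with an array left out was not counted.

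**Figure D4:**
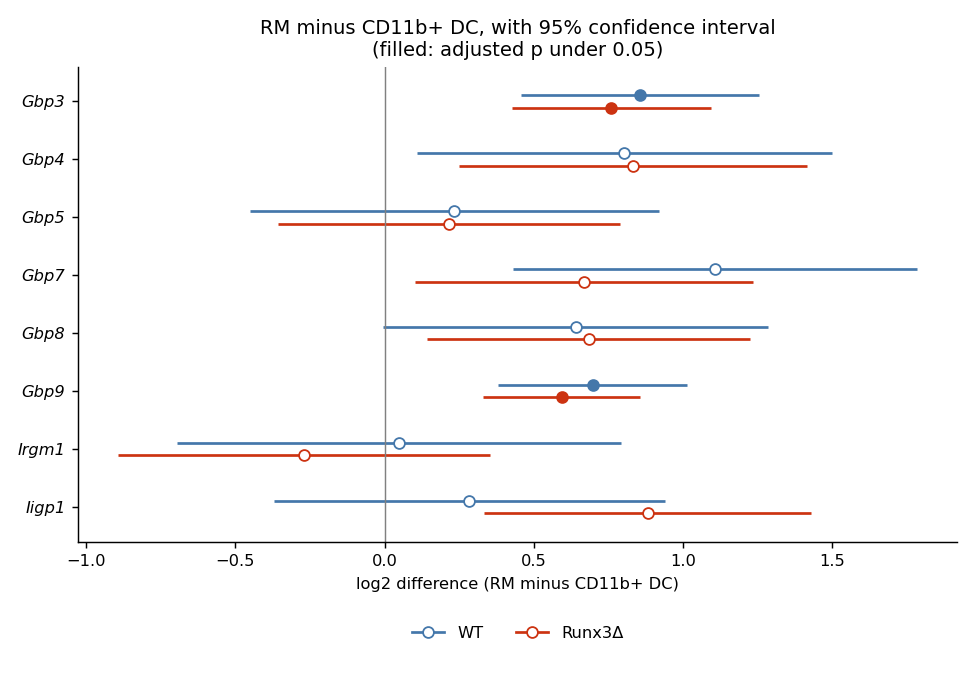
Log2 difference between RM and CD11b+ DC (x axis) for each gene (y axis) in WT and in Runx3Δ, with lines for the 95% confidence interval. Filled circles, for Gbp3 and Gbp9 in both genotypes, mark an adjusted p under 0.05, and Irgm1 lies near 0 in WT and at -0.27 in Runx3Δ.

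The other GTPases of these families were measured less completely, since 16 of the 24 listed share a row or have none. Of the 8 with a row of their own, 6 were above 0 in RM and 5 in CD11b+ DC, with medians of 0.23 and 0.30. None passed the adjusted limma threshold, and 3 in each had an unadjusted p under 0.05, where 7.96% and 6.74% of all rows lay. In RM all 3 were higher in Runx3Δ, and in CD11b+ DC 2 were higher and 1 lower. Gbp11, of the same family as the GBP genes above, differed by 0.46 in RM and 0.57 in CD11b+ DC. Gm4951, an immunity-related GTPase, differed by 0.93 and 0.75, and Gm4841 by 0.33 in RM. In CD11b+ DC, Gm12185 differed by 0.65 and Irgq by -0.37.

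Interferon-γ and its signaling genes were listed next. Of 14 measured, 7 were above 0 in RM and 9 in CD11b+ DC, and 0 passed the limma test after adjustment. An unadjusted p under 0.05 was found for 3 in each, and for 7.96% and 6.74% of all rows. In RM all 3 were higher in Runx3Δ, and in CD11b+ DC 2 were higher and 1 lower. Ifng itself read 4.57, 4.86 and 4.73 in WT RM and 5.51, 6.12, 4.92 and 5.12 in Runx3Δ RM, a log2 difference of 0.70 without overlap, and differed by 0.04 in CD11b+ DC. These levels are low, since the medians of whole arrays ran from 5.33 to 5.52. The WT RM arrays and RM Runx3Δ replicate 3 lay under 5, the limit used here for dim rows. Batf2, an interferon-induced partner of IRF1, differed by 0.70 in RM and 1.02 in CD11b+ DC, and Irf8, which shapes macrophage and DC development, by 0.31 and 0.52. Jak1, a receptor kinase, differed by -0.27 in CD11b+ DC.

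Of 20 other interferon-γ targets measured, 16 were above 0 in RM and 16 in CD11b+ DC, with medians of 0.28 and 0.27. Nlrc5, the activator of MHC class I genes, rose by 0.76 ± 0.09 (SE) over both cell types (limma adjusted p = 0.0371), and it was the 1 gene of the list past that threshold. This value is that of its brightest row, and the mean of its rows differed by 0.59. This call did not hold with the litter as replicate block (limma adjusted p = 0.134), in the 4-group model without moderation (adjusted p = 0.0844) or with arrays centred on their median (adjusted p = 0.0502). It was also lost on leaving out any array but RM WT replicate 1 and RM Runx3Δ replicate 3, with adjusted p between 0.0504 and 0.241 and the difference between 0.72 and 0.80. In each cell type alone 0 genes of the list passed the limma test after adjustment. For 9 in each the unadjusted p was under 0.05, as for 7.96% and 6.74% of all rows. All were higher in Runx3Δ but for 1 in RM, Ciita, the activator of MHC class II genes (-0.41). In RM, Nos2, the inducible nitric oxide synthase, differed by 2.70, Nlrc5 by 0.83 and Tap1, a peptide transporter, by 0.64. In CD11b+ DC, Nlrc5 differed by 0.69, Upp1, of pyrimidine salvage, by 0.95 and Ido1, which degrades tryptophan, by 0.88.

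Genes of the type I interferon response mostly had lower means in Runx3Δ RM. Of 27 measured, 26 were below 0 in RM with a median of -0.42, and 15 were below 0 in CD11b+ DC with a median of -0.01. In either, 0 passed the limma test after adjustment, against 16 and 9 at an unadjusted p under 0.05. Of all rows, 7.96% in RM and 6.74% in CD11b+ DC had such a p. The 16 were lower in Runx3Δ, and of the 9 in CD11b+ DC 6 were lower and 3 higher. Ifnb1, which encodes interferon-β, differed by -1.79 in RM, Ddx60 by -0.61 and Ifih1, a sensor of viral RNA, by -0.75. In CD11b+ DC, Ifih1 differed by -0.82, Oasl1 by -0.91 and Zbp1, a sensor of nucleic acids, by 0.66. All lists were compiled with earlier results of these data known.

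**Figure D5:**
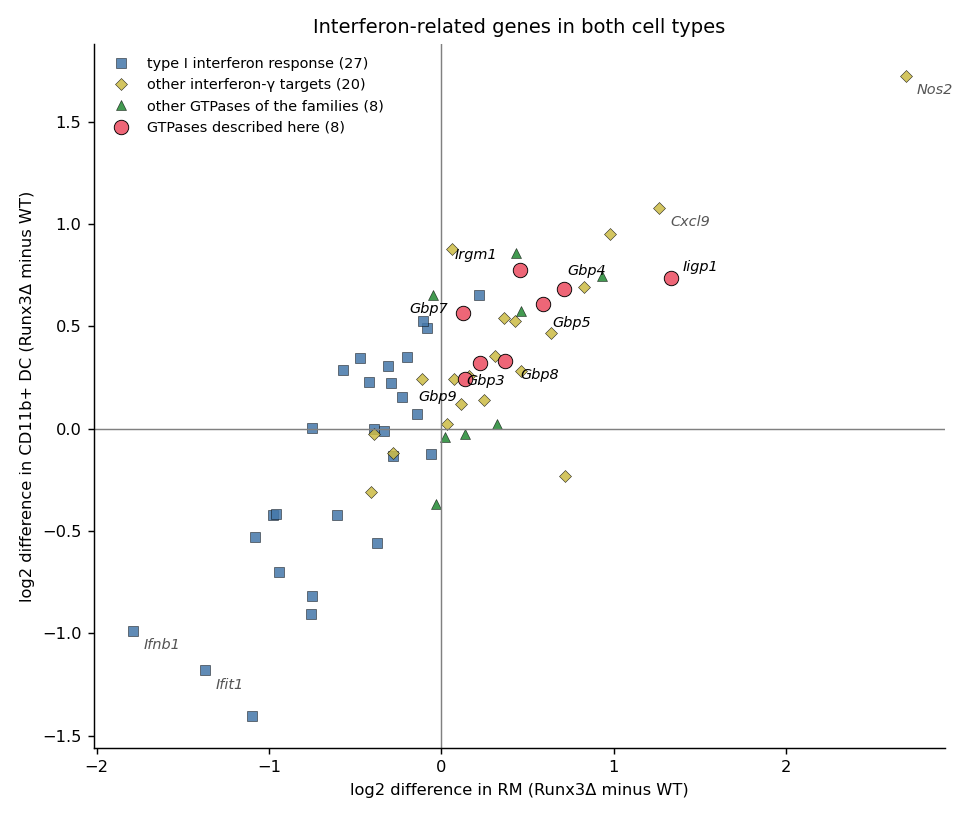
Log2 difference between Runx3Δ and WT in RM (x axis) and in CD11b+ DC (y axis), 1 point per gene, for the 8 GTPases, 8 others of the families, 20 other interferon-γ targets and 27 genes of the type I interferon response. The 8 GTPases lie right of and above 0, and 26 type I interferon genes lie left of 0.

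The 8 GTPases varied together across arrays. Over 12 arrays, the 28 pairs of genes had a median correlation of 0.71 (0.21 to 0.96), and after the group means were subtracted a median of 0.70 (0.33 to 0.93), which describes genes read on the same arrays. Irgm1 followed the mean of the other 7 least on levels (r = 0.49) and more closely within groups (r = 0.80), while for Iigp1 the values were 0.78 and 0.54. RM Runx3Δ replicate 1 and DC Runx3Δ replicate 1 were above their group mean for 0 of 8 genes, and without the first the median difference in RM was 0.56.

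Among 19930 other genes, those most like the mean of the 8 over the 12 arrays were Calhm6 (r = 0.95), Gbp11 (r = 0.95), Rasgrp1 (r = 0.94), Ly9 (r = 0.94), Slamf8 (r = 0.94) and Lap3 (r = 0.94). After the group means were subtracted they were Ssr3 (r = 0.98), Rnf149 (r = 0.97), Smim24 (r = 0.97), Oasl2 (r = 0.96), Dtx3l (r = 0.96) and Batf2 (r = 0.96). These genes were picked as the most alike of many, and the values describe them without a test.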

How the data were processed

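Sorted RM and CD11b+ DC of WT and Runx3Δ mice were measured on 12 Affymetrix arrays. The authors deposited log2 values, computed in Partek by RMA with correction for GC content. The methods name an exon array and the platform annotation a gene-level array, whose annotation was used here, and the submitters' processing notes name the build mm9. Of 35556 rows, 21789 carry 1 gene symbol (21698 of them in the reference table), 1621 several and 12146 none. All columns of per-sample values were used. The number of arrays limits the precision.

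All rows were fitted as 4 groups with limma 3.58.1 in R 4.3.3 (statmod 1.5.0 for the random block), two-sided, with p-values adjusted by the Benjamini-Hochberg method over every row and a threshold of 0.05. The fit was tested on simulated data. Motifs and figures used Python 3.11.15 and matplotlib 3.10.9. Nothing states that the samples are independent beyond their pools and litters, so p-values measure the spread between these samples.

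The 8 GTPases, the 7 pathway lists and the 11 marker lists were chosen with earlier results of these data known. The text names every member, the genes of each pathway list that passed the adjusted threshold in a comparison of genotypes, up to 3 per list and cell type with the smallest unadjusted p, and the 6 genes most alike to the members on each of 2 scales. Ifng arrays, Cd3e, Runx3 and the marker genes are given besides.

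The numbers of litter mates in the labels were taken as litters. The reported fit left the litter out, so its tests are unpaired and treat arrays of 1 litter as independent. Litters entered only in the within-litter differences and in the alternatives with a block. After removal of group means, 13 pairs of arrays of 1 litter from different groups correlated at a median r of 0.0958 (range -0.0412 to 0.358), against -0.0347 (range -0.257 to 0.203) for 40 pairs of different litters. The 3 pairs of both genotypes in RM had a median r of 0.0342 (range -0.0412 to 0.207), and the 1 such pair in CD11b+ DC an r of 0.0774. Alternatives were the litter as replicate block, fixed or random, the groups of a comparison alone, a linear model of 2 or 4 groups without moderation (ANOVA), weighted arrays, a trend in the prior variance made robust, removal of rows whose mean level was under 5, quantile normalization, centring of arrays on the median, gene-level tests on the brightest row or on averaged rows, only rows with 1 gene symbol, and the omission of each array. They were applied to Nlrc5 after its value was seen. Chromatin, flow cytometry and PCR data were not analysed here.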

Additional observations from a re-analysis of the deposited data

How the results depend on the processing

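Over 25 alternatives, 23 for the average and the interaction, the median difference of the 8 GTPases stayed above 0 in RM (0.26 to 0.62), in CD11b+ DC (0.40 to 0.71) and on average (0.39 to 0.59). Of the values for single genes, 1083 kept direction and side of the threshold, 42 passed it where the reported value did not, 14 no longer passed and 29 changed sign. The cause of these changes was not tested, except that fewer rows enter where 1 row, the mean of the rows or rows with 1 symbol were used.

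After adjustment 1 member, Iigp1, passed in RM with 1 row per gene, the mean of the rows or rows with 1 symbol, and 1 on average with these and with array weights. In RM the study's thresholds were met by 1 member in the 2-group model without moderation (ANOVA) and by 1 to 4 with an array left out. In CD11b+ DC they were met by 4 with the litter as replicate block, 4 with its groups alone, 4 after quantile normalization, 5 with array weights, 1 with median centring, 0 by either ANOVA and 0 to 4 with an array left out. RM against CD11b+ DC in WT was called for 5 members with the replicate block, 4 with array weights, 1 with its groups alone, 0 by ANOVA and 0 to 4 with an array left out. With the WT groups alone that 1 was Gbp7 (limma adjusted p = 0.0370), while Gbp3 (0.0701) and Gbp9 (0.0615) did not pass. In Runx3Δ the counts were 4 with the block, 5 with array weights, 4 with 1 row, the mean of the rows or rows with 1 symbol, 0 by ANOVA and 1 to 5 with an array left out. The replicate block also ended the call of Nlrc5, which was lost in 13 of 23 alternatives. Counts that moved only slightly were treated as unchanged and are not listed, such as the addition of Gbp7 in WT after quantile normalization. Shares of all rows called were counted for the reported fit and not for the alternatives.

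Signs turned in these differences, of which the largest as reported were the interaction of Irgm1 (-0.32) and the difference of Iigp1 between cell types in WT (0.28), neither past the threshold. The interaction of Gbp4 was -0.26 with the replicate block, -0.0068 with the random block, -0.12 with array weights and -0.011 with median centring, and that of Gbp8 -0.22 with the block and -0.13 with weights. With an array left out, the interaction ranged from -0.22 to 0.059 for Gbp3, -0.28 to 0.25 for Gbp4, -0.26 to 0.32 for Gbp5, -0.28 to 0.21 for Gbp8 and -0.66 to 0.015 for Irgm1. The difference between cell types in WT ranged from -0.10 to 0.48 for Gbp5, -0.29 to 0.39 for Irgm1 and -0.12 to 0.68 for Iigp1, and that of Gbp7 between genotypes in RM from -0.0058 to 0.38. Omitting either DC WT array leaves 1 array there, assumed to vary like the other groups.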

Other observations

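Lists of partners of the GTPases had members on both sides of 0. Of 14 genes of the autophagy conjugation machinery and ubiquitin partners, 5 were above 0 in RM and 8 in CD11b+ DC, with medians of -0.07 and 0.02, and Sqstm1, an autophagy receptor, differed by -0.32 and -0.28. Gabarapl1 differed by -0.39 and Map1lc3b by -0.31 in RM. Of 13 inflammasome and pyroptosis genes, 3 and 6 were above 0, with medians of -0.13 and -0.07, where Gsdmd, the pore of pyroptosis, differed by 0.29 and 0.45, in RM Aim2 by -0.43 and Nlrp3 by -0.30, and in CD11b+ DC Mefv by -0.34 and Casp1 by 0.34. The largest differences of this list, chosen after their values were seen, were those of Naip5 (-0.44 in RM and -0.68 in CD11b+ DC) and Nlrc4 (-0.49 and -0.58), which sense bacterial proteins. Of 6 genes that prenylate or process CaaX proteins, 2 were above 0 in each cell type, with medians of -0.08 and -0.07. None of these 33 genes passed the adjusted limma threshold, and 5 in RM, all lower in Runx3Δ, and 2 in CD11b+ DC had an unadjusted p under 0.05, as did 7.96% and 6.74% of all rows.

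Of the other marker lists, all 10 stromal genes were below 0 in both cell types, with medians of -0.24 in RM and -0.44 in CD11b+ DC. The medians in RM and CD11b+ DC were 0.09 and 0.09 for B and plasma cells, 0.17 and 0.05 for granulocytes, 0.14 and -0.10 for mast cells, 0.03 and -0.23 for endothelium, -0.21 and -0.41 for monocytes, -0.10 and 0.05 for macrophages, 0.05 and -0.16 for conventional DC and -0.15 and -0.12 for the genes of the sort. Single markers chosen after their values were seen differed more than these medians. In CD11b+ DC, F13a1 differed by -2.38, Fn1 by -2.02 and Mrc1 by -1.21, with unadjusted limma p of 0.00139, 0.00777 and 0.000878 and none past the adjusted threshold. The mast cell proteases Mcpt1 and Mcpt2 differed by 1.18 and 1.04 in RM and by 1.25 and 1.28 in CD11b+ DC. The part of these cells in the differences of the GTPases was not tested.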
